A study of Mus musculus with 9 samples.

Results

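Retinoic acid genes were followed in mouse caudal epiblast-like cells that lacked either the Cdx genes or T/Bra. The 9 genes covered the synthesis, breakdown, carriage and reception of retinoic acid, and they were chosen by name from the 24736 genes in the table. All 9 were found there. They were the synthesis enzyme Aldh1a2, the degrading enzymes Cyp26a1 and Cyp26b1, the reductase Dhrs3, the binding proteins Crabp1 and Crabp2, and the receptors Rara, Rarb and Rarg. Poly(A) RNA was sequenced from 9 cultures of embryonic stem cell derived cells, 3 each of WT (wild-type), CdxKO (genotype Cdx1/2/4-/-, mutant for Cdx1, Cdx2 and Cdx4) and T/BraKO (genotype T/Bra-/-). CDX proteins and T/BRA are transcription factors of the caudal epiblast and primitive streak. Every culture was grown in N2B27 medium with 10 ng/ml bFGF and 5 µM LGK974, an inhibitor of WNT secretion, with CHIR99021, which activates WNT signalling, present for the last day until 72 h (day 3). No retinoid was named among the additions to the medium, and whether its B27 supplement held vitamin A is not given in the sources used here. The stem cells had been kept on feeder cells that were removed before differentiation, and the labels name no second line for any genotype.

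Retinoic acid is made from retinol in a pair of oxidation steps, by retinol dehydrogenases such as RDH10 and then by retinaldehyde dehydrogenases such as ALDH1A2. DHRS3 turns retinaldehyde back into retinol, and CYP26 enzymes oxidise retinoic acid for removal. The RAR receptors bind DNA together with RXR partners and recruit corepressors or coactivators according to whether the ligand is present. In the embryo, Aldh1a2 in the trunk mesoderm and Cyp26a1 in the tail bud are known to set up opposed zones of retinoic acid supply and clearance. Cyp26a1 and Rarb are textbook targets of the receptors themselves.

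The sequences below are shown because they are where a receptor element can be read directly, in promoters from RefSeq on GRCm38.p6 (the same assembly as mm10). Windows of 300 bases, from 250 before to 50 after an annotated start, were available for 8 of the 9 genes (14 windows). They were searched on both strands for direct repeats of AGGTCA or AGTTCA or GGGTCA or GGTTCA spaced by 5 bases. Such repeats were held by 0.0974% of all 32851 windows, and among the 9 genes by those of Cyp26a1 and Rarb. The capitals mark the repeat, printed as read along the strand of the gene, with 6 flanking bases on each side. The Rarb half-sites were matched on that strand. Those of Cyp26a1 were matched on the opposite strand, so its capitals show their reverse complement. The Cyp26a1 site is at chr19:37697770-37697798 (+ strand), with its repeat 32 to 16 bases before the start in a window whose sequence also falls in the first exon of a longer annotated transcript. The Rarb site is at chr14:16575507-16575535 (- strand), with its repeat 53 to 37 bases before the start, and it is also in an untranslated exon of a longer transcript.
Cyp26a1: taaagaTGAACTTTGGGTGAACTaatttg
Rarb: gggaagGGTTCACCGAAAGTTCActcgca

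Repeats of the same half-sites spaced by 2 bases were in 0.268% of all windows and in none of these genes. CAATAAA, which holds the core of a CDX site, was in 4.6% of all windows and in 1 of the genes (Dhrs3), and the shorter CATAAA was in 11.9% of windows and in none of the genes. GGTGTGA, a T-box half-site, was in 3.98% of windows and in 3 windows of Rara, of which a pair overlap and share 1 match. ATCAAAG, a TCF/LEF site, was in 3.73% of windows and in none. The Rarg promoter is printed because Rarg was the gene called between genotypes with and without the replicate term described later, and none of the motifs searched was found in either of its windows. The gene itself spans chr15:102234938-102257522, Aldh1a2 chr9:71215789-71296243, Cyp26a1 chr19:37697738-37701536 and Crabp1 chr9:54764748-54773110. The 250 bases before the more upstream Rarg start, chr15:102257523-102257772 on the - strand, overlap no annotated transcript.
Rarg: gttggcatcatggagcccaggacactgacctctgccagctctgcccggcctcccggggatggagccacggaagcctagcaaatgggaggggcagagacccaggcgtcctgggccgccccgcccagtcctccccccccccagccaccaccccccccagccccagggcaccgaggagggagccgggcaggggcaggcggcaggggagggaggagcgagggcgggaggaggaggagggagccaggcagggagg

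The libraries held 25124344 to 34705361 expected counts. Rn45s, the ribosomal RNA precursor, took 4.21% of them in CdxKO replicate 1 and 3.69% in T/BraKO replicate 1, and 0.343% to 1.69% in the other 7. T was at 12240 ± 2181 normalised counts (SD, n = 3) in WT and 2295 ± 563 in T/BraKO, while Cdx4 was at 118 ± 52.2 in WT and 1.64 ± 0.338 in CdxKO. Transcripts of Cdx1 and Cdx2 were reduced rather than absent in CdxKO, at 272 ± 68.8 normalised counts against 536 ± 90.7 in WT for Cdx1 and 1031 ± 516 against 4199 ± 1740 for Cdx2. The lines also differed outside the named genes. The Y-linked Ddx3y was at 0 in all 3 CdxKO libraries and at 1727 ± 55.7 in WT, and Hprt was at 21.7 ± 5.81 in WT and at 3938 ± 303 in T/BraKO, so such differences cannot be told apart from the genotype. Libraries with the same replicate number deviated together, so each fold change was also fitted with a term for the replicate number (the replicate block).

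The retinoic acid genes spanned a wide range of levels. On the TPM scale, which corrects for transcript length, the mean over the 9 libraries was 116 for Crabp2, 61.8 for Rarg, 24.7 for Rara, 19.7 for Crabp1, 5.10 for Aldh1a2, 2.504 for Cyp26a1, 0.453 for Dhrs3, 0.217 for Cyp26b1 and 0.178 for Rarb. Crabp2 was above Rarg, and Rarg above Rara, in each of the 9 libraries and without overlap of their ranges. All later neighbours in that order overlapped. The most abundant transcripts were those of the carriers and receptors, and the enzymes that make or remove the ligand were all at most 15.8 TPM. Transcripts of Cyp26c1, the remaining Cyp26 gene, were listed at 0 TPM in every library.

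**Figure D1:**
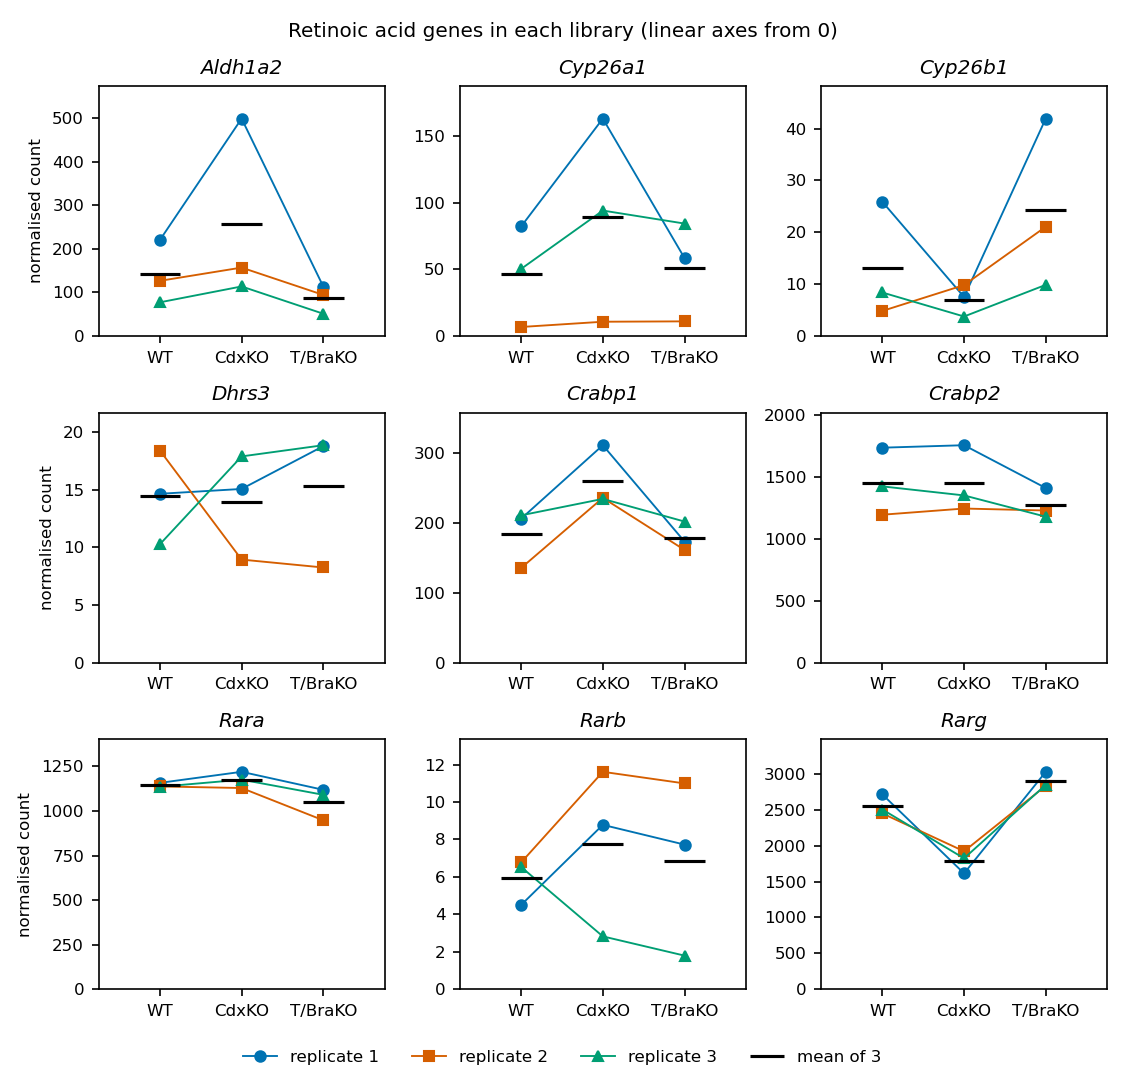
Normalised count (vertical axes, linear, from 0) of each of the 9 genes by genotype. Points are single libraries, lines join libraries of the same replicate number and black bars are means of 3. Rarg is lowest in the 3 CdxKO libraries (1613 to 1921), and Cyp26a1 is lowest in replicate 2 of every genotype (6.77 to 11.0).

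Rarg, the most abundant receptor gene here, was lower in CdxKO than in both other genotypes. Its normalised counts were 2713, 2448 and 2503 in WT replicates 1 to 3, 1613, 1921 and 1823 in CdxKO, and 3028, 2833 and 2846 in T/BraKO. The 3 groups did not overlap, with CdxKO lowest and T/BraKO highest. In CdxKO against WT the log2 fold change was -0.52 (SE 0.10, 95% confidence interval -0.70 to -0.33, n = 3 against 3; DESeq2 adjusted p 4.70e-05), a level 1.43 times lower. Within replicate series 1, 2 and 3 the log2 difference was -0.75, -0.35 and -0.46. The difference was called without any single library, but not without all libraries of replicate 1 (log2 fold change -0.40, adjusted p 0.85) or of replicate 3 (-0.55, adjusted p 0.0591). Under the quasi-likelihood test of edgeR its adjusted p was 0.108, and 0.00481 with the replicate block.

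Against T/BraKO, the Rarg level of CdxKO was lower by a log2 fold change of -0.70 (SE 0.10, interval -0.89 to -0.51; DESeq2 adjusted p 7.15e-11), and the edgeR adjusted p was 0.00527. T/BraKO itself was higher than WT in 3 of 3 replicate series, with log2 differences of 0.16, 0.21 and 0.19, but the fitted change of 0.18 (SE 0.09, DESeq2 adjusted p 0.988, and 0.127 with the replicate block) was not called. Both comparisons with WT share the same 3 control libraries. Of the variance of Rarg over the 9 libraries (log2 scale), 94.0% lay between genotypes and 0.0293% between replicate numbers. The medians over 12316 genes with a mean of at least 50 normalised counts were 21.7% and 58.4%.

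Rara, which encodes the alpha receptor, was at 948 to 1220 normalised counts and was called in none of the comparisons. Its levels were 1158, 1138 and 1136 normalised counts in WT, 1220, 1129 and 1176 in CdxKO, and 1119, 948 and 1091 in T/BraKO. WT and CdxKO overlapped and the T/BraKO libraries lay below both. The log2 fold change was 0.04 in CdxKO against WT (interval -0.15 to 0.22), -0.12 in T/BraKO against WT (-0.31 to 0.06) and 0.16 in CdxKO against T/BraKO (-0.03 to 0.34). The DESeq2 adjusted p of the last was 0.604. The Rara interval for CdxKO against WT did not reach the fitted -0.52 of Rarg.

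Rarb, the receptor gene with the repeat printed above, was close to the limit of detection, with 2 to 13 expected counts per library. Normalised counts were 4.50, 6.77 and 6.53 in WT, 8.78, 11.6 and 2.82 in CdxKO, and 7.72, 11.0 and 1.79 in T/BraKO. The groups overlapped throughout, and 2 libraries were at or under 3 counts. No difference in Rarb was detectable at this depth, with an interval of -1.32 to 2.07 on the log2 scale for CdxKO against WT.

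The composition of the receptor transcripts followed the level of Rarg. Rarg made up 72.0% ± 0.977 (SD, n = 3) of the summed TPM of the 3 RAR genes in WT, 63.7% ± 2.79 in CdxKO and 76.2% ± 1.20 in the T/BraKO libraries. Rara made up 27.8% ± 0.939, 36.1% ± 2.79 and 23.6% ± 1.33. The summed RAR TPM was 91.7 ± 4.40 in WT, 72.0 ± 3.63 in CdxKO and 96.3 ± 3.98 in the T/BraKO libraries. The 3 CdxKO libraries were below the other 6 on both the sum and the Rarg share. Since Rarg is the largest part of the sum, both restate the Rarg difference and are not separate results. These shares were described without a test.

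**Figure D2:**
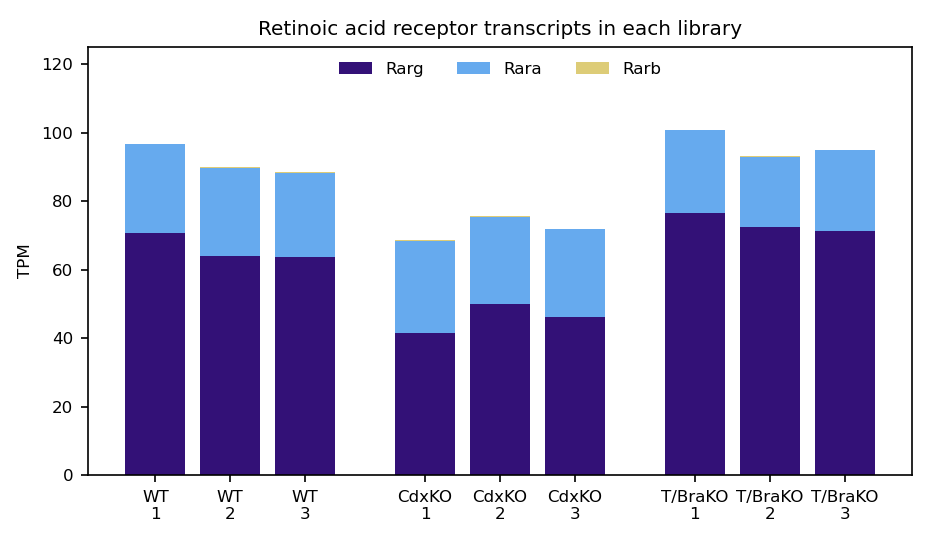
TPM (vertical axis, from 0) of Rarg, Rara and Rarb stacked for each of the 9 libraries, labelled by genotype and replicate number. The stacks reach 68.5 to 75.8 TPM in CdxKO and 88.5 to 101 TPM in the other 6 libraries, and the Rarb layer is at most 0.31 TPM.

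Aldh1a2, whose product makes retinoic acid, was highest in CdxKO and lowest in T/BraKO within each replicate series. Its normalised counts were 221, 127 and 77.4 in WT replicates 1 to 3, 499, 157 and 114 in CdxKO, and 114, 94.3 and 51.1 in T/BraKO. The lowest CdxKO library lay just above the highest T/BraKO library, and WT overlapped both. CdxKO against T/BraKO gave a log2 fold change of 1.57 (SE 0.56, DESeq2 adjusted p 0.105), which was not called. With the replicate block it was 1.37 (SE 0.24, interval 0.90 to 1.84, adjusted p 5.77e-07), a level 2.58 times higher, and edgeR with the block gave an adjusted p of 0.00298. The blocked call was kept without any single library, at log2 fold changes of 1.02 (without CdxKO replicate 1) to 1.63 (without CdxKO replicate 2), and was lost without all libraries of replicate 1 (0.94, adjusted p 0.0866).

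Against WT, the CdxKO level of Aldh1a2 was higher in each of the 3 series, with log2 differences of 1.17, 0.31 and 0.55. The fitted change was 0.86 (SE 0.55, DESeq2 adjusted p 1), and 0.72 with the replicate block (SE 0.24, adjusted p 0.0428), which passed the threshold narrowly. With the block it passed again only without CdxKO replicate 2 or T/BraKO replicate 2 among the 9 single libraries, and without CdxKO replicate 1, the highest library, it was 0.35 (adjusted p 0.868). CdxKO replicate 1 was also the library with the largest Rn45s share (4.21%), the lowest Rarg and the highest Rdh10. T/BraKO replicate 1, with the next largest share (3.69%), had the highest Rarg (3028 normalised counts) and an Rdh10 of 398. The part of the Rn45s share in these results was not tested. The adjusted p of edgeR with the block was 0.0906. In T/BraKO against WT the log2 differences within series were -0.95, -0.42 and -0.59, and the blocked change of -0.65 (SE 0.25, DESeq2 adjusted p 0.0741) was not called. Aldh1a2 supplied 92.5% ± 5.74 of the summed TPM of Aldh1a1, Aldh1a2 and Aldh1a3 in WT, 91.4% ± 4.26 in CdxKO and 89.5% ± 5.95 in the T/BraKO libraries.

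Markers of other cells also differed between CdxKO and T/BraKO. In bulk RNA, more cells of one type and more RNA per cell cannot be told apart. Of 7 paraxial mesoderm markers, Msgn1, Tbx6 and Dll1 were called higher in CdxKO than in T/BraKO, and the summed TPM of the list was 59.2 to 102 in WT, 37.6 to 120 in CdxKO and 24.5 to 38.6 in T/BraKO. Of 6 fibroblast genes that feeder cells would carry, Col1a1, Col1a2 and Postn were called higher and Thy1 lower, with sums of 33.6 to 59.3, 41.6 to 77.7 and 32.8 to 54.5 TPM. Of 4 lateral and extraembryonic mesoderm markers, Hand1 was called higher, with sums of 7.18 to 11.9, 13.2 to 14.8 and 4.64 to 8.48 TPM. With the block Kdr was called higher as well, and with edgeR and the block Tbx20. Of 5 definitive endoderm markers, Foxa1 was called higher, and with the block Foxa2 as well, with sums of 8.76 to 18.9, 7.03 to 25.5 and 4.25 to 12.8 TPM. In CdxKO against WT, where Rarg was also called, Hand1 and the naive pluripotency gene Klf4 were called higher and Cdx2 and Wnt3a lower. With the block, where Aldh1a2 was called too, Col1a1 and Col1a2 were also called higher, and Thy1, Irx3, Hes7, Nkx1-2 and Fgf8 lower. Of all genes tested in that comparison, 0.335% were called higher and 0.358% lower, and 3.4% and 1.91% with the block. None of the markers listed was at 0 in all libraries, and their part in the Aldh1a2 and Rarg results was not tested. The 6 caudal epiblast markers summed to 796 to 1013 TPM in WT, 478 to 1001 in CdxKO and 515 to 769 in T/BraKO. Of these, T and Fgf8 were called higher and Cdx2 and Nkx1-2 lower in CdxKO than in T/BraKO. With the block, the naive pluripotency gene Zfp42 was called higher there. Of all genes tested in that comparison, 2.52% were called higher and 0.962% lower, and 7.75% and 6.9% with the block. In T/BraKO against WT, Msgn1, Tbx6, Dll1, T, Wnt3a, Fgf8 and Postn were called lower, beside 0.937% of all genes, and no marker higher. With the block, Hes7, Col1a1, Col1a2, Foxa2, Kdr and Irx3 were also called lower, beside 4.85%. Cdx2, Nkx1-2 and Tfcp2l1 were then called higher, beside 4.83%. The part of these markers in the Meis2 and Hoxb1 results was not tested.

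Cyp26a1, the main enzyme of retinoic acid removal in the tail bud, varied with the replicate series more than with the genotype. Its normalised counts were 82.1, 6.77 and 50.3 in WT, 163, 10.7 and 94.1 in CdxKO, and 58.5, 11.0 and 84.3 in T/BraKO. Replicate 2 was lowest in every genotype, below all 6 other libraries. Replicate number held 91.0% of its variance and genotype 5.14%. The share held by replicate number was larger than that of 94.7% of the 12316 genes.

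Within series, Cyp26a1 was higher in CdxKO than in WT in 3 of 3, by 0.98, 0.59 and 0.89 on the log2 scale. The fitted log2 fold change was 0.94 without the block (SE 1.17) and 0.89 with it (SE 0.37, interval 0.17 to 1.61), and neither was called (DESeq2 adjusted p 1 and 0.165). T/BraKO was below WT in series 1 and above it in the other 2, with log2 differences of -0.48, 0.63 and 0.73 and a blocked change of 0.29 (interval -0.44 to 1.02). Against T/BraKO, CdxKO was higher by 0.60 with the block (interval -0.10 to 1.31, adjusted p 0.297).

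Cyp26b1, the second hydroxylase, was at 4 to 38 expected counts per library. Normalised counts were 25.9, 4.84 and 8.39 in WT, 7.52, 9.82 and 3.76 in CdxKO, and 41.9, 21.1 and 9.87 in T/BraKO. The highest CdxKO library was just below the lowest T/BraKO library. The log2 fold change of CdxKO against T/BraKO was -1.78 (SE 0.81, DESeq2 adjusted p 0.337) without the block and -1.59 with it (SE 0.68, adjusted p 0.1), and only edgeR with the block called it (adjusted p 0.0369). Neither mutant was called against WT. Cyp26a1 made up 88.0% ± 7.32 of the summed Cyp26 TPM in WT, 90.5% ± 13.8 in CdxKO and 77.9% ± 18.7 in the T/BraKO libraries, which overlapped widely.

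Dhrs3, the reductase that returns retinaldehyde to retinol, was also near the limit of detection, with 9 to 21 expected counts. It was at 14.6, 18.4 and 10.3 normalised counts in WT, 15.1, 8.93 and 17.9 in CdxKO, and 18.8, 8.24 and 18.8 in T/BraKO. All groups overlapped. Its log2 fold change was -0.05 in CdxKO against WT (interval -1.16 to 1.05) and 0.08 in T/BraKO against WT (-1.01 to 1.17), intervals that admit a doubling or a halving.

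Crabp1 and Crabp2 encode the cytoplasmic proteins that bind retinoic acid. Crabp1 was at 206, 135 and 211 normalised counts in WT, 311, 236 and 234 in CdxKO, and 173, 161 and 202 in T/BraKO. All 3 CdxKO libraries were above the other 6. The log2 fold change of CdxKO against T/BraKO was 0.54 (SE 0.22, DESeq2 adjusted p 0.241), and 0.54 with the replicate block (SE 0.18, adjusted p 0.0273), which was called. That call was kept without WT replicate 2, WT replicate 3 or CdxKO replicate 3 and lost without each of the other 6 libraries, with values of 0.41 (without T/BraKO replicate 1) to 0.70 (without CdxKO replicate 3). Against WT the Crabp1 change was 0.50 (SE 0.22, adjusted p 0.74), and 0.51 with the block (SE 0.18, adjusted p 0.0791). T/BraKO and WT overlapped, at a log2 fold change of -0.04 (interval -0.48 to 0.40).

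Crabp2 was at 1738, 1196 and 1425 normalised counts in WT, 1758, 1246 and 1352 in CdxKO, and 1412, 1230 and 1180 in T/BraKO. Each WT library had a CdxKO library of about the same level in its own series. The log2 fold change of CdxKO against WT was 0.00 in size, with an interval of -0.36 to 0.35 without the block and -0.17 to 0.17 with it. In T/BraKO against WT it was -0.19 (SE 0.18), and with the block -0.18 (SE 0.09, DESeq2 adjusted p 0.203). Crabp1 made up 12.5% ± 1.60 of the summed Crabp TPM in WT, 16.9% ± 0.654 in CdxKO and 13.8% ± 2.15 in the T/BraKO libraries.

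**Figure D3:**
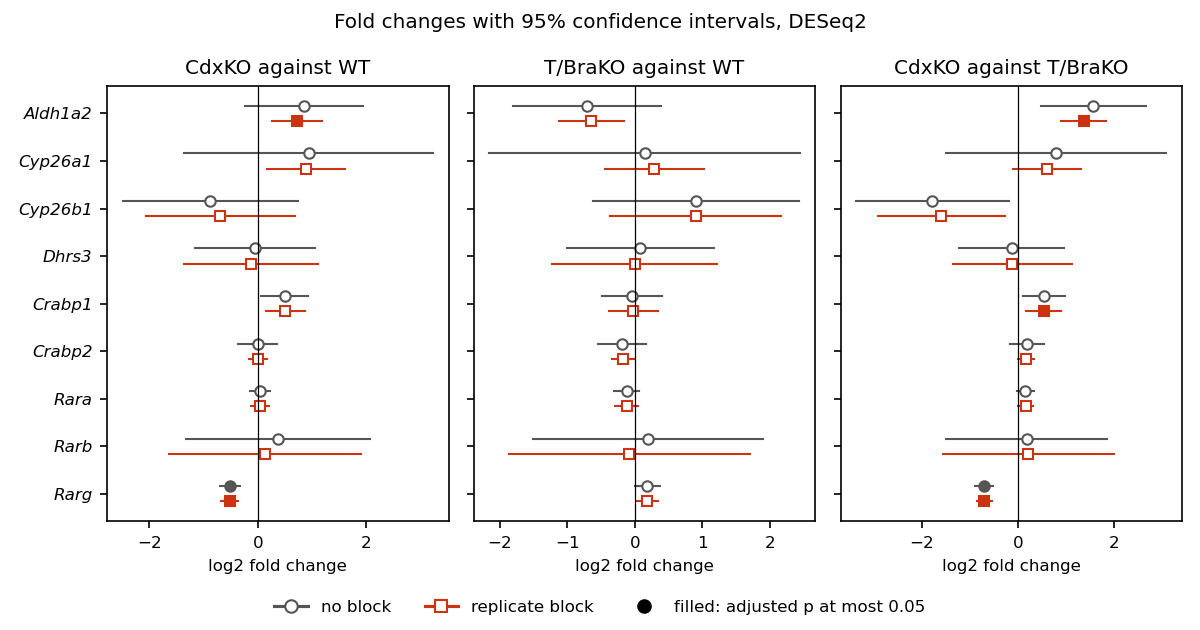
Log2 fold change (horizontal axes, a separate scale for each panel) of the 9 genes in the 3 comparisons, with 95% confidence intervals from DESeq2 without (grey circles) and with (red squares) the replicate block. Filled symbols have an adjusted p of at most 0.05. Rarg is filled under both fits with CdxKO below WT (-0.52 and -0.51) and below T/BraKO (-0.70 in each).

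Counted over the 9 genes, CdxKO against WT gave 1 call without the block (Rarg, lower), beside 0.358% of all genes called lower and 0.335% called higher. With the block there were 2 (Rarg lower, Aldh1a2 higher), beside 1.91% lower and 3.4% higher. T/BraKO against WT gave 0 calls in DESeq2 without the block. There 0 of the 9 had an unadjusted p under 0.05, beside 5.13% of all genes tested. With the block it also gave 0 calls. Of the 6 genes that received an adjusted p with it, 3 had an unadjusted p under 0.05, beside 21.4% of all genes tested. The background was 0.937% lower and 0.148% higher without the block, and 4.85% and 4.83% with it. edgeR called 0 in T/BraKO against WT with and without the block. Without it, 0 of 8 genes had an unadjusted p under 0.05, beside 6.04% of all genes. With it, 4 of 8 did, beside 26.8%. CdxKO against T/BraKO gave 1 call without the block (Rarg, lower), beside 0.962% lower and 2.52% higher, and 3 with it (Rarg lower, Aldh1a2 and Crabp1 higher), beside 6.9% and 7.75%. The groups did not overlap for 2 of the 9 genes in CdxKO against WT (Rarg, Crabp1), 2 in T/BraKO against WT (Rarg, Rara) and 5 in CdxKO against T/BraKO (Rarg, Rara, Crabp1, Aldh1a2, Cyp26b1). The shares over the 12316 genes with a mean of at least 50 were 9.87%, 9.92% and 15.5%, a filter that Cyp26b1, Rarb and Dhrs3 did not pass.

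The other genes of the pathway were 50 genes for retinol uptake, interconversion, retinaldehyde oxidation, breakdown, carriage, receptors, coregulators and known responses. In CdxKO against WT, 1 of the 43 tested was called higher (Meis2) and 3 lower (Hoxa3, Hoxb4, Hoxb5), beside 0.335% and 0.358% of all genes. In T/BraKO against WT, 0 of 49 were called higher and 2 lower (Meis2, Fgf8), beside 0.148% and 0.937%. In CdxKO against T/BraKO, 4 of 42 were called higher (Rdh10, Hoxb1, Meis2, Fgf8) and 3 lower (Hoxa3, Hoxb4, Hoxb5), beside 2.52% and 0.962%. The median log2 fold change over those tested was 0.03, 0.02 and 0.01, beside -0.001, 0.019 and -0.021 over all 12316 genes. With the replicate block, 6 of 35 were called higher and 5 lower in CdxKO against WT, beside 3.4% and 1.91% of all genes. In T/BraKO against WT, 3 of 34 were higher and 3 lower, beside 4.83% and 4.85%, and in CdxKO against T/BraKO 6 of 39 were higher and 9 lower, beside 7.75% and 6.9%. Where the most abundant gene of a list by mean TPM was not one of the 9, it was Adh5 at 300.0, Fabp5 at 194, Gbx2 at 166 or Ncor1 at 77.0 in the lists described here, and none of these was called without the block.

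Rdh10, the retinol dehydrogenase of the step before Aldh1a2, was at 428, 406 and 398 normalised counts in WT, 736, 439 and 521 in CdxKO, and 398, 333 and 339 in T/BraKO. The CdxKO libraries lay above all others. Its log2 fold change was 0.66 in CdxKO against T/BraKO (SE 0.20, DESeq2 adjusted p 0.0263), and 0.64 with the block (SE 0.14, adjusted p 5.78e-05). Without the block, that call was lost without CdxKO replicate 1 (0.43, adjusted p 0.166), WT replicate 1, CdxKO replicate 3, or T/BraKO replicate 2 or 3. It was also lost under edgeR (adjusted p 0.145) and in the DESeq2 fit to the 6 libraries compared (adjusted p 0.0789). With the block the call was kept without any single library, and lost without all libraries of replicate 1 (0.51, DESeq2 adjusted p 0.0741). In CdxKO against WT the log2 fold change of Rdh10 was 0.46 (SE 0.20, adjusted p 0.646). With the block it was 0.43 (SE 0.14, adjusted p 0.0316), which was called. That blocked call was kept only without CdxKO replicate 2 or T/BraKO replicate 2 among the 9 single libraries (0.28 without CdxKO replicate 1), and edgeR with the block gave an adjusted p of 0.0613. With the block, Rdh10 was the 1 of 7 tested interconversion genes called higher in CdxKO than in T/BraKO by DESeq2. Aldh1a2 was the 1 of 3 retinaldehyde dehydrogenase genes so called, and 7.75% of all genes tested were called higher. edgeR with the block also called Rdh11.

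Among genes known to respond to retinoic acid, the calls went in different directions. Meis2, a homeobox gene, was at 208, 142 and 132 normalised counts in WT, 610, 602 and 245 in CdxKO, and 72.8, 65.0 and 66.4 in T/BraKO, with no overlap between the groups. CdxKO was 3.02 times above WT (log2 fold change 1.60, SE 0.34, DESeq2 adjusted p 0.00092) and T/BraKO 2.36 times below it (-1.24, SE 0.35, adjusted p 0.0404). The first Meis2 call was lost without CdxKO replicate 1 (1.40, adjusted p 0.0704), and the second without WT replicate 1 or 2 or any one T/BraKO library (-1.01 to -1.32). Neither was called without all libraries of replicate 1 or of replicate 2, or under edgeR without the block (adjusted p 0.261 and 0.334). With the block the DESeq2 adjusted p was 2.85e-10 and 1.70e-05, and that of edgeR 0.00469 and 0.0179. Hoxb1, a Hox gene of the hindbrain level, was at 2106, 994 and 1207 in WT, 3803, 1317 and 2533 in CdxKO, and 888, 390 and 399 in T/BraKO. CdxKO against T/BraKO gave 2.19 for Hoxb1 (SE 0.55, DESeq2 adjusted p 0.00393). That call was lost without all libraries of replicate 3 (2.00, adjusted p 0.408), and the edgeR adjusted p was 0.0586. With the block Hoxb1 was also called in CdxKO against WT (0.79, adjusted p 0.00245, lost without WT replicate 1, WT replicate 3 or CdxKO replicate 1) and in T/BraKO against WT (-1.39, adjusted p 3.32e-10).

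Of the 4 more posterior Hox genes of the list, 3 were called lower in CdxKO than in WT by DESeq2. Of all genes tested, 0.358% were called lower there without the block and 1.91% with it. Hoxa4, at a mean of 13.4 normalised counts in WT and 1.43 in CdxKO, was called lower by edgeR with the block (adjusted p 0.0357), was not called by DESeq2 without the block (adjusted p 0.427) and received no adjusted p with it. Hoxa3 was at 376, 78.4 and 214 normalised counts in WT and at 26.3, 7.14 and 5.64 in CdxKO, a log2 fold change of -4.12 (SE 0.85, DESeq2 adjusted p 0.000567). That call was lost without all libraries of replicate 3 (-3.77, DESeq2 adjusted p 0.286). Hoxb4 was at 276, 78.4 and 142 in WT and at 56.4, 35.7 and 21.6 in CdxKO (-2.13, SE 0.54, adjusted p 0.0186), a call lost without WT replicate 1 (-1.55, adjusted p 0.648), WT replicate 3, or CdxKO replicate 2 or 3. Hoxb5 was at 90.0, 4.84 and 37.3 in WT and at 1.25, 0 and 1.88 in CdxKO (adjusted p 0.00245, and 0.111 without WT replicate 1), too few reads for a fold change. With the block, the adjusted p of Hoxa3, Hoxb4 and Hoxb5 was 1.24e-32, 1.14e-10 and 2.33e-06. Under edgeR it was 0.214, 0.528 and 0.435 without the block, and 1.72e-05, 0.00266 and 0.00202 with it. In T/BraKO against WT none of these 3 was called, with or without the block.

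Fgf8, which encodes a growth factor of the caudal epiblast that retinoic acid is known to repress, was lowest in T/BraKO, and both mutants lay below WT. It was at 857, 642 and 677 normalised counts in WT, 547, 317 and 556 in CdxKO, and 195, 233 and 309 in T/BraKO. In T/BraKO against WT the log2 fold change was -1.56 (SE 0.26, DESeq2 adjusted p 5.01e-07). In CdxKO against WT it was -0.62 (SE 0.25, adjusted p 0.572), and -0.65 with the block (SE 0.17, adjusted p 0.00401), which was called. That blocked call was lost without WT replicate 1, WT replicate 2, CdxKO replicate 2 or T/BraKO replicate 2 (-0.46 to -0.66), and edgeR with the block gave an adjusted p of 0.0668. The RXR partner Rxrg was called only with the block, at -0.61 in CdxKO against WT (SE 0.15, adjusted p 0.00207), and Rxra only with the block at 0.24 in T/BraKO against WT (SE 0.08, adjusted p 0.0238). With the block, Tgm2 (0.75, adjusted p 0.00613) and Hic1 (1.39, adjusted p 0.0257) were among those also called higher in CdxKO than in WT. Fabp5 (0.21, adjusted p 0.0208) and the coactivator gene Ncoa3 (0.21, adjusted p 0.0431) were called higher in T/BraKO than in WT. Of the 9 fits with the block that each left out 1 library, 7 kept the call of Rxrg, 4 that of Tgm2, 3 each those of Hic1, Rxra and Fabp5, and 2 that of Ncoa3. The Rxrg call was lost without WT replicate 1 or CdxKO replicate 1, and the other calls were lost without WT replicate 1, among others. With edgeR and the block, Hic1 had an adjusted p of 0.0513 and the others were called. By edgeR with the block, Tgm2 was also called higher in T/BraKO than in WT, and DESeq2 did not call it there. Its log2 differences of T/BraKO from WT within series were 0.55, 0.42 and 0.42.

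**Figure D4:**
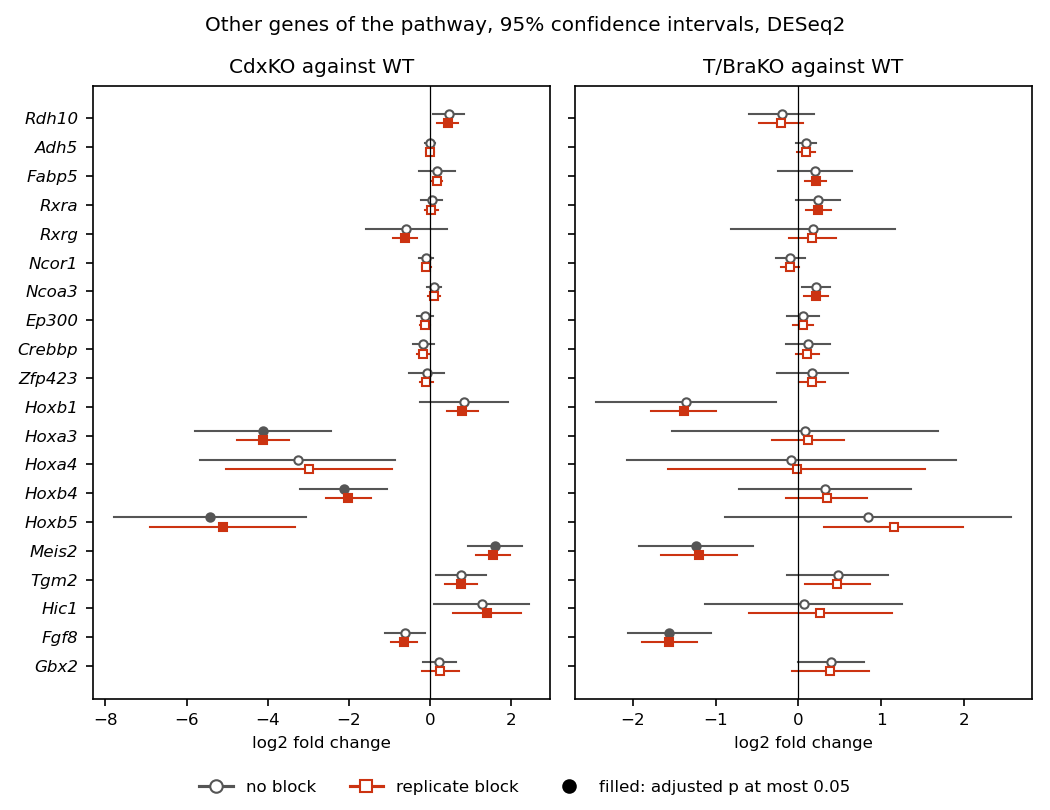
Log2 fold change (horizontal axes, a separate scale for each panel) of 20 other pathway genes in CdxKO and T/BraKO against WT, with 95% confidence intervals from DESeq2 without (grey circles) and with (red squares) the replicate block. Filled symbols have an adjusted p of at most 0.05. Meis2 is filled on opposite sides (1.60 in CdxKO, -1.24 in T/BraKO), and Hoxa3 (-4.12) is filled in CdxKO.

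The genes with the patterns most like Rarg, Aldh1a2 and Crabp1 were ranked by correlation. Over the 9 libraries, on log2 normalised counts plus 1, the genes with the highest Pearson correlation with Rarg were Gtf3a (0.972), Cdx4 (0.969) and Grb10 (0.959). Cdx4 is one of the genes named in the CdxKO genotype and was at 1.25 to 1.88 normalised counts in those libraries. For Aldh1a2 they were Itga6 (0.964), Cited1 (0.960) and Mef2a (0.958), and for Crabp1 Pmpca (0.953), Cyth2 (0.939) and Slc19a2 (0.938). The points share their genotypes and replicate series, and the correlations were chosen as the highest among 12316 genes.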

How the data were processed

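The authors trimmed reads with cutadapt 1.16, aligned and quantified them with STAR 2.5.2a and RSEM 1.3.0 against mm10 RefSeq genes, and deposited expected counts and TPM per gene, which RSEM had scaled for length. These were strand-specific single-end reads. For the present work, deposited expected counts were rounded, and genotypes were compared with DESeq2 1.42.0 (Wald test, genotype as the only term, all 9 libraries, default size factors, unshrunken log2 fold changes, two-sided, R 4.3.3). Benjamini-Hochberg adjusted p of at most 0.05 over all genes tested was a call. TPM was used for levels between genes and for shares, without a test. Normalised counts are counts divided by size factors.

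Replicate numbers came from the library titles. Over 12316 genes, deviations from the group means correlated at 0.532 to 0.814 between same-numbered libraries and at -0.69 to 0.134 otherwise, so the numbers were taken as pairs and blocked values were given where a call changed. The titles call the libraries biological replicates, and nothing further says how separate the cultures were. Alternatives were the replicate block, TMM factors, leaving out genes that did not reach 10 counts in 3 libraries, edgeR 4.0.16, fits to the 6 libraries compared, stricter thresholds and leaving out libraries. edgeR with the block, and the block without each library or replicate number, were added after seeing the data. The tests were checked on simulated counts, for genes with a mean of at least 10 normalised counts. Genes as low as Rarb and changes as small as that of Rarg were outside this check.

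The text names the 9 genes, every other listed pathway gene called without the block and the most abundant gene of each list, and the 3 genes most correlated with each member called with the block, since only 1 was called without it. Values of a few individual genes are not reported here. Pathway genes called with the block, and cell type markers, are named as such. Members and lists were chosen with earlier results of these data known. Intervals are 95% intervals for the fitted log2 fold change, from its DESeq2 SE. They rest on the modelled spread between libraries and need not span the differences within single series.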

Additional observations from a re-analysis of the deposited data

How the results depend on the processing

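Among the 9 genes, CdxKO against WT gave 1 call in the reported fit, 2 with the replicate block, 0 with edgeR and 0 at an absolute log2 fold change above 1. Leaving out single libraries or whole replicate numbers gave 0 (without replicate number 1 or 3) to 1. CdxKO against T/BraKO gave 1 call, 3 with the replicate block, 4 with edgeR and the block, 0 at an absolute log2 fold change above 1, and 1 to 2 when libraries were left out, with Aldh1a2 the added call without CdxKO replicate 3 (log2 fold change 1.93, adjusted p 0.0262). For the 50 other pathway genes, CdxKO against WT gave 4 calls in the reported fit. These became 11 with the replicate block, 0 with edgeR, 9 with edgeR and the block, and 1 to 4 with libraries left out. They were 2 without WT replicate 1. The 2 calls of T/BraKO against WT became 6, 1, 7 and 1 to 3, and 1 at an adjusted p of at most 0.01. They were 1 without WT replicate 1, WT replicate 2, T/BraKO replicate 2 or T/BraKO replicate 3. The 7 calls of CdxKO against T/BraKO became 15, 2, 14 and 2 to 7. In edgeR without the block, 9 of the 38 pathway genes tested had an unadjusted p under 0.05 in CdxKO against WT. The share over all genes was 5.08%. Calls over all genes also rose with the block. In CdxKO against WT, T/BraKO against WT and CdxKO against T/BraKO, DESeq2 called 116, 205 and 558 genes without it. With the block DESeq2 called 736 of 13855, 1237 of 12773 and 2187 of 14936 genes tested. Of 14551 genes, edgeR called 16, 56 and 237, and with the block 663, 1382 and 2724. The cause of these differences was not tested, beyond the blocked fit removing the variance between replicate numbers and the fits without libraries having fewer samples.

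Of 801 alternative log2 fold changes of the 9 genes, 72 had another sign than the reported one, and none of these was called in either fit. Calls were lost in 3 and gained in 29. TMM factors shifted the median log2 fold change of all genes by -0.0081 to -0.002. With expected counts in place of TPM, which ignores transcript length, the Rarg share of the RAR genes was 68.9%, 60.1% and 73.3% in WT, CdxKO and T/BraKO, the Rara share 30.9%, 39.7% and 26.5%, the Cyp26a1 and Cyp26b1 shares in WT 73.4% and 26.6%, and the Crabp1 and Crabp2 shares in CdxKO 15.2% and 84.8%. Depth limits Rarb, Dhrs3 and Cyp26b1, at 2 to 38 expected counts per library.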
